A study of Mus musculus with 4 samples.

Results

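Promoter CpGs outside CpG islands in the frontal cortex were compared between female mice exposed to estriol (E3) before birth and control (CT) mice. They were taken from the frontal cortex table of differing CpGs, as the sites with a gene in the promoter column and an empty island column. This gave 1138 of 9731 listed CpGs, at the promoters of 1058 genes, of which 925 code for protein, 89 make a long noncoding RNA and 30 make a microRNA. The mothers were wild-type CD-1 mice, an outbred stock, and carried a mini-osmotic pump with 50 µl of E3 at 0.46 mg/ml in DMSO, or of DMSO alone for CT, for 7 days from gestation day 9. Genomic DNA was cut with the enzymes TaqαI and MspI, treated with bisulfite and sequenced (Methyl-MiniSeq), and each tissue had 1 E3 library and 1 CT library. The labels give an age of 8 weeks, the study describes cortex expression in older offspring, and which age the DNA came from was not settled. Whether a library held DNA of 1 mouse or of several is not given in the sources used here. With 1 library per group no value has a replicate check, and each test compares 2 libraries and not the exposures. Intervals of shares cover counting error alone, and those of medians the spread over CpGs alone. In bulk tissue a shift in the share of cell types and a shift of methylation within cells cannot be told apart.

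CpG methylation is copied to the new strand when DNA is replicated, so a methylated site can last through cell division. Promoters inside CpG islands are mostly free of methylation in every tissue, whatever their activity. Promoters with few CpGs carry intermediate or high methylation more often, and theirs differs more between cell types. Bisulfite turns unmethylated cytosine into a base that is read as T, so the methylation level of a site is the share of its reads that still show C.

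The sequences of the promoter stretches and single CpGs on which the values below turn are given on the plus strand of GRCm38.p6 (mm10) from RefSeq. Capitals mark the CpGs of this set, and CpGs in lower case were not among the listed promoter CpGs outside islands. The first group holds stretches with several CpGs that were all higher in E3 in the frontal cortex, followed by stretches that were all lower. The Slc30a6, Fv1/Miip and Spin4 stretches stood in the opposite order in the hippocampus, and Zfp970 and Mmp15 in the same order. Izumo4, Wipf2 and Traip were also in the opposite order, with small differences, E3 minus CT, of -1.80, 1.34 and 3.16 points. Mrps24 was not measured there.
Izumo4, chr10:80702958-80703252: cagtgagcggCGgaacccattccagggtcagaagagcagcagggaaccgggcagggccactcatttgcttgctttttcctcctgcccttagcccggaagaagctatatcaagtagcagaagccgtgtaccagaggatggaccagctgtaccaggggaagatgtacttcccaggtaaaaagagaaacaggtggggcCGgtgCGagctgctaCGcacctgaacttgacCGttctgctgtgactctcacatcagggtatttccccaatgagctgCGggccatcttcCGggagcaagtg
Zfp970, chr2:177465113-177465186: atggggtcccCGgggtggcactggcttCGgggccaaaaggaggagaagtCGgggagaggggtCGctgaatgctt
Mmp15, chr8:95351422-95351507: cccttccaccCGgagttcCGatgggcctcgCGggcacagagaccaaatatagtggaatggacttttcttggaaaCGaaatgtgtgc
Slc30a6, chr17:74395146-74395175: gtgtggccatCGtgaCGgCGtaggttcttg
Fv1/Miip, chr4:147869054-147869153: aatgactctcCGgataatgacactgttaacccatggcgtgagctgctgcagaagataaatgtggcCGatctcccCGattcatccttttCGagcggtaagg
Wipf2, chr11:98864306-98864494: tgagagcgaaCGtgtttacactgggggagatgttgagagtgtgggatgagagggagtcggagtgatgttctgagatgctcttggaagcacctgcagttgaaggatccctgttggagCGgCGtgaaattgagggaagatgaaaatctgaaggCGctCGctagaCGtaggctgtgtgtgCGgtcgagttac
Traip, chr9:107951336-107951425: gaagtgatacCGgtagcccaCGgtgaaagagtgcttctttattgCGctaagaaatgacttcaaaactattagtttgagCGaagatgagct
Mrps24, chr11:5708186-5708255: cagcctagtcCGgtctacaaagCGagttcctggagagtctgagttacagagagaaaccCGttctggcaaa
Spin4, chrX:95025716-95025777: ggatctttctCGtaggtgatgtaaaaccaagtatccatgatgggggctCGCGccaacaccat

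The next group holds single CpGs. Mir6923 and Kif2c were among the largest differences lower in E3, and Fsip2 and Gpx2 among the largest higher in E3, in the frontal cortex. Mir7022, Asb10 and Numb had the same direction in the hippocampus with the smallest p, and Gm10857 had the opposite one. The Mir433/Mir127 and Mir3071 to Mir432 windows lie in a microRNA group on chromosome 12.
Mir6923, chr11:67099310-67099351: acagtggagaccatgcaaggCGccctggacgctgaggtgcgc
Kif2c, chr4:117183188-117183229: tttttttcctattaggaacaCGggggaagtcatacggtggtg
Fsip2, chr2:82943552-82943593: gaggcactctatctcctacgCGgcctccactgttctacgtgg
Gpx2, chr12:76795316-76795357: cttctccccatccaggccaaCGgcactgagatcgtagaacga
Mir7022, chr4:148146666-148146707: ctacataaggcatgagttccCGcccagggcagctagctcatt
Asb10, chr5:24540105-24540146: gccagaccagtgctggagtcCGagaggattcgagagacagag
Numb, chr12:83877773-83877814: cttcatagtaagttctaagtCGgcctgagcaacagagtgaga
Gm10857, chr2:6132330-6132371: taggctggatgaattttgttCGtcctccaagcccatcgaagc
Mir433/Mir127, chr12:109592567-109592608: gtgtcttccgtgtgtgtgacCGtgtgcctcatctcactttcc
Mir3071/Mir434/Mir136/Mir432, chr12:109594659-109594700: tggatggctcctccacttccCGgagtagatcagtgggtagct

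In the frontal cortex, 827 of the 1138 CpGs (72.7%, 95% Wilson interval 70% to 75.2%) were lower in E3 and 311 were higher. The lower CpGs had a median level of 3.06% in E3 and 26% in CT, and the higher ones 28.4% in E3 and 5% in CT. The upper quartile of the library with less methylation was 6.97% at the lower CpGs, with a highest level of 51%, and 9.69% at the higher ones, with a highest level of 52.6%. Of all the CpGs 361 were at exactly 0% in 1 library (278 in E3 and 83 in CT). The difference was under 25 points at 497 of the lower and 190 of the higher CpGs. It was at least 25 points at 451 in all, at least 50 points at 90 and at least 75 points at 23. The smallest difference was 10.1 points, a limit set by the rule that made the list, and 7 CpGs had less than 11. The library with the higher level never lay under 15.1%, so that CpGs with low levels in both libraries are not among them. The table lists differing sites alone and gives no read numbers, so these levels describe how the CpGs were chosen, and no test of them was made. By promoter, 781 genes had only lower and 262 only higher CpGs, and 15 genes had both.

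**Figure D1:**
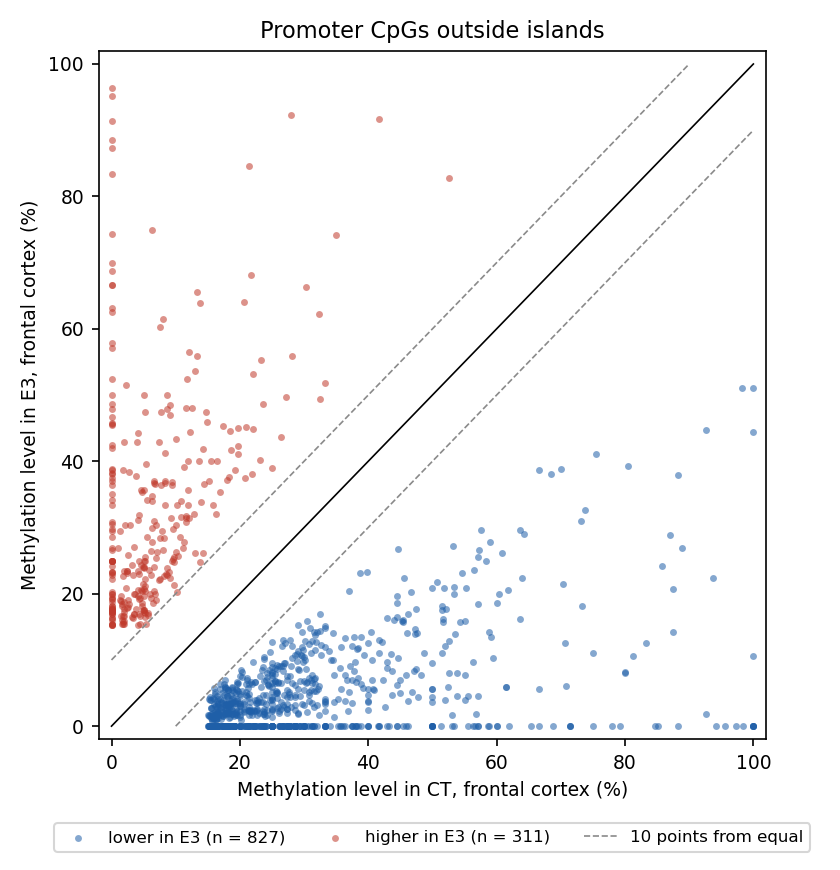
Methylation level in CT (x axis, %) and E3 (y axis, %) in the frontal cortex, 1 point per promoter CpG outside islands. The 827 CpGs lower in E3 lie mostly near the bottom, up to an E3 level of 51%, and the 311 higher ones mostly near the left side, up to a CT level of 52.6%, and none lies inside the dashed lines 10 points from equality.

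The direction went with the restriction sites. The recognition site of MspI (CCGG) held 427 of the CpGs and that of TaqαI (TCGA) 110. Of the CpGs in an MspI site 85.2% (81.6% to 88.3%) were lower in E3, of those in a TaqαI site 90% (83.0% to 94.3%), and of the 601 in neither site 60.6% (56.6% to 64.4%). CpGs in a TaqαI site had a median of exactly 0% in E3 and 20% in CT, and those in an MspI site 3.45% and 22.1%. Outside both sites the medians were 13.9% and 21.4%. Among listed promoter CpGs inside islands, 85.1% of 1610 were lower, but 62.0% of those lay in an MspI site, against 37.5% here. Outside both sites, the island promoters had 62.2% lower (57.9% to 66.2%), against the 60.6% found here. In an MspI site they had 96.1% lower (94.7% to 97.1%), against 85.2% here. In a TaqαI site they had 94.7% (88.1% to 97.7%), against 90%. The shares were thus alike outside the enzyme sites, and higher at island promoters within them. These intervals treat CpGs as independent, which neighbouring CpGs are not, and the difference between the shares was not tested. Enzyme site CpGs made up 12.5% (MspI) and 4.67% (TaqαI) of the 576559 promoter CpGs measured in the hippocampus. Ends cut by these enzymes are filled in with new cytosines during library preparation. By the study's methods the filled-in bases were trimmed from the reads, and whether any remained in the frontal cortex levels was not tested.

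**Figure D2:**
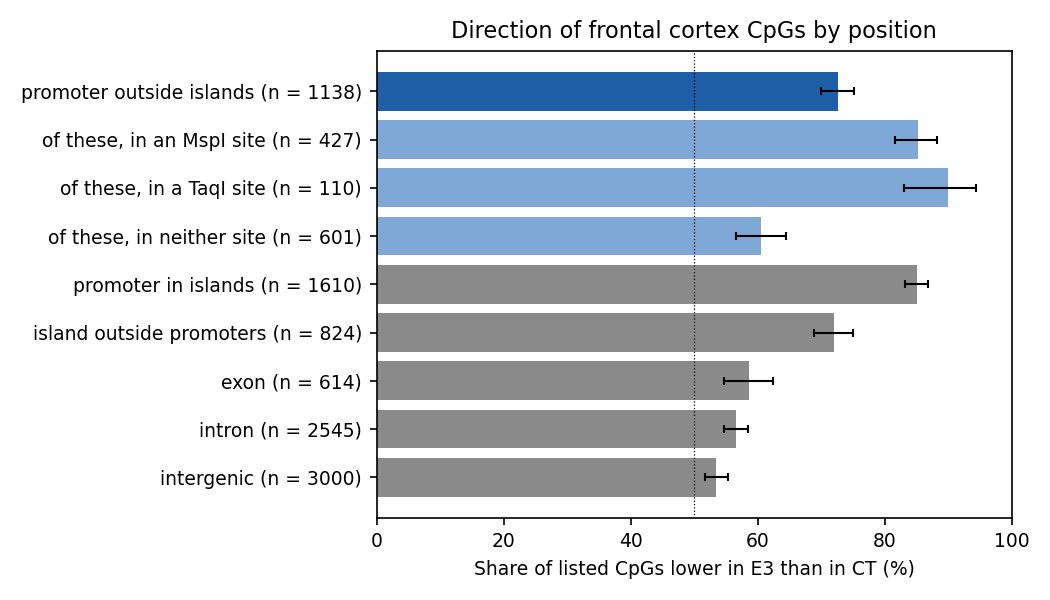
Share of listed frontal cortex CpGs that were lower in E3 than in CT (x axis, %), with 95% Wilson intervals, by position. Promoter CpGs outside islands are split by enzyme site below the first bar, from 60.6% in neither site to 90% in a TaqI site; the dotted line marks 50%.

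The CpGs lay in sparse sequence. The median window, 100 bases to either side, held 7 CpGs, an observed to expected CpG ratio of 0.51 and 54.7% G and C, against 19 CpGs, 0.86 and 68.2% at the listed island promoters. By RefSeq, 453 lay in introns, 218 in untranslated exons, 142 in coding exons, 54 in exons of noncoding RNA and 271 outside all of these. The share lower in E3 ran from 64.8% in noncoding RNA exons to 77.5% in coding exons. Upstream of the start 342 of 491 CpGs (69.7%) and downstream 482 of 641 (75.2%) were lower. In steps of 200 bases away from the start, the share lower ranged from 70.1% in the nearest step to 77.4% in the last but one. Repeats held 90 of the CpGs, of which 73.3% were lower.

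Estrogen receptors bind a palindrome of AGGTCA arms in DNA. The palindrome GGTCANNNTGACC was found within 100 bases of 0 of the 1138 CpGs and of 0.0257% of the promoter CpGs measured in the hippocampus, on either strand. The single arm AGGTCA or its complement was found near 12.8% of the lower CpGs, 8.68% of the higher ones and 7.26% of the measured promoter CpGs, whose windows were richer in G and C with a median of 65.7%. A CpG of the set lay inside the E-box CACGTG in 8 cases, in the GC box GGGCGG in 18 and in the CRE core TGACGTCA in 0. These are matches of letters in a window.

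Neighbouring CpGs went in the same direction. Of 54 neighbour pairs at most 20 bases apart, 54 had the same direction, and so had 36 of 38 pairs at 21 to 50 bases, 27 of 29 at 51 to 100 bases and 21 of 23 at over 100 and up to 200 bases. From there to 500 bases it was 11 of 16, and from there to 2000 bases 12 of 14. Close CpGs are read by the same DNA fragments, so such a pair is not a pair of independent measurements. Chained at gaps of up to 200 bases, 904 of the CpGs stood alone, 64 pairs formed, and 106 CpGs formed 26 clusters of 3 or more, 13 lower and 13 higher on average. In 25 of the clusters all CpGs had the same direction, and Klhl17 had both.

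Pigyl, a relative of the GPI anchor synthesis gene Pigy, had the cluster with the most CpGs, 9 within 78 bases of an untranslated exon. All were lower in E3, with 1.72% to 22.4% in E3 and 31.3% to 93.8% in CT. The hippocampus had 26.1% of 356 reads (21.8% to 30.9%) in E3 and 4.94% of 81 reads (1.94% to 12.0%) in CT over the same 9 CpGs, so that the libraries stood in the opposite order there. A read counts once at each CpG it covers in these sums, and the intervals are therefore too narrow. Sdr42e1, a short-chain dehydrogenase gene, had 5 lower CpGs around its start with means of 8.03% in E3 and 26.8% in CT, and 16.9% and 12.5% in the hippocampus.

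Mrps24, which codes for a protein of the mitochondrial ribosome, had the widest gap of the lower clusters. Its 3 CpGs, all in repeat sequence, had 8.20%, 28.8% and 5.77% in E3 and 80%, 87% and 39.1% in CT, and were not measured with 5 reads in both hippocampus libraries. Traip, a ubiquitin ligase gene that acts in DNA replication, had 4 lower CpGs in an intron with 1.47% to 3.90% in E3 and 17.8% to 24.7% in CT. Its hippocampus levels were 3.16% in E3 and 0.00% in CT. Minar2 had 4 lower CpGs at its start, with means of 8.97% and 27.7%, and 13.6% against 1.45% in the hippocampus. Gm5134 had 3 lower CpGs, with 3.40% and 35.3%, and 33.6% against 38.2% of hippocampus reads.

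Izumo4, of the family of sperm and egg fusion proteins, had 7 CpGs that were all higher in E3. Their levels were 26.9% to 60.2% in E3 and 0.00% to 13.3% in CT. In the hippocampus the same CpGs had 25.8% of 361 reads in E3 and 27.6% of 127 reads in CT, and the intervals overlapped. Oscp1 also had a cluster of 7 higher CpGs, with 15.4% to 23.4% in E3 and at most 2.44% in CT, and hippocampus levels of 2.95% and 1.76%. An eighth CpG of the Oscp1 promoter, outside the cluster, was lower. Sgo2b, of the shugoshins that guard centromere cohesion, had 6 higher CpGs around its start, with means of 20.6% and 2.50%, and 10.9% against 21.3% in the hippocampus.

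A hippocampus CpG is called here where the libraries lay 10 points or more apart and a 2-sided Fisher's exact test gave p under 0.05 before any adjustment. By this rule 12.1% of all 1722586 hippocampus CpGs with at least 5 reads in both libraries and 6.63% of those within 1000 bases of a RefSeq start were called. Mmp15, a membrane-bound matrix metalloproteinase gene, had 4 higher CpGs at -864 to -800 bases from its start. They had 45.6%, 39.1%, 35.6% and 16.1% in E3 and 0.00%, 11.4%, 4.55% and 0.00% in CT. The hippocampus had the same order, with 48.0% of 98 reads (38.3% to 57.7%) in E3 and 5.88% of 68 reads (2.31% to 14.2%) in CT, and 3 of the 4 CpGs were called there. Zfp970, a zinc finger gene, had 4 higher CpGs in an intron, with 31.1% to 44.2% in E3 and 4.17% to 8.33% in CT, and 48.1% of 366 against 25.2% of 119 reads in the hippocampus, where 2 were called. The 3 CpGs of 2810429I04Rik had means of 43.2% and 18.1%, and 57.8% against 30.6% in the hippocampus, with 2 called. These 3 clusters were higher in E3 in both tissues.

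Fv1, a gene that restricts murine retroviruses, shares its promoter CpGs with Miip. Its cluster of 4 CpGs had 15.2% to 20% in E3 and 0.00% at all 4 in CT, but 7.42% of 364 hippocampus reads in E3 against 35.0% of 80 in CT. Slc30a6, a zinc transporter gene, had 3 higher CpGs within 10 bases with means of 31.8% and 3.03%, and 5.86% against 16.1% in the hippocampus. Spin4, an X-linked spindlin gene, had 3 lower CpGs with means of 12.0% and 38.2%, and 37.6% of 428 against 18.2% of 110 hippocampus reads. These 3 clusters stood in the opposite order in the hippocampus.

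**Figure D3:**
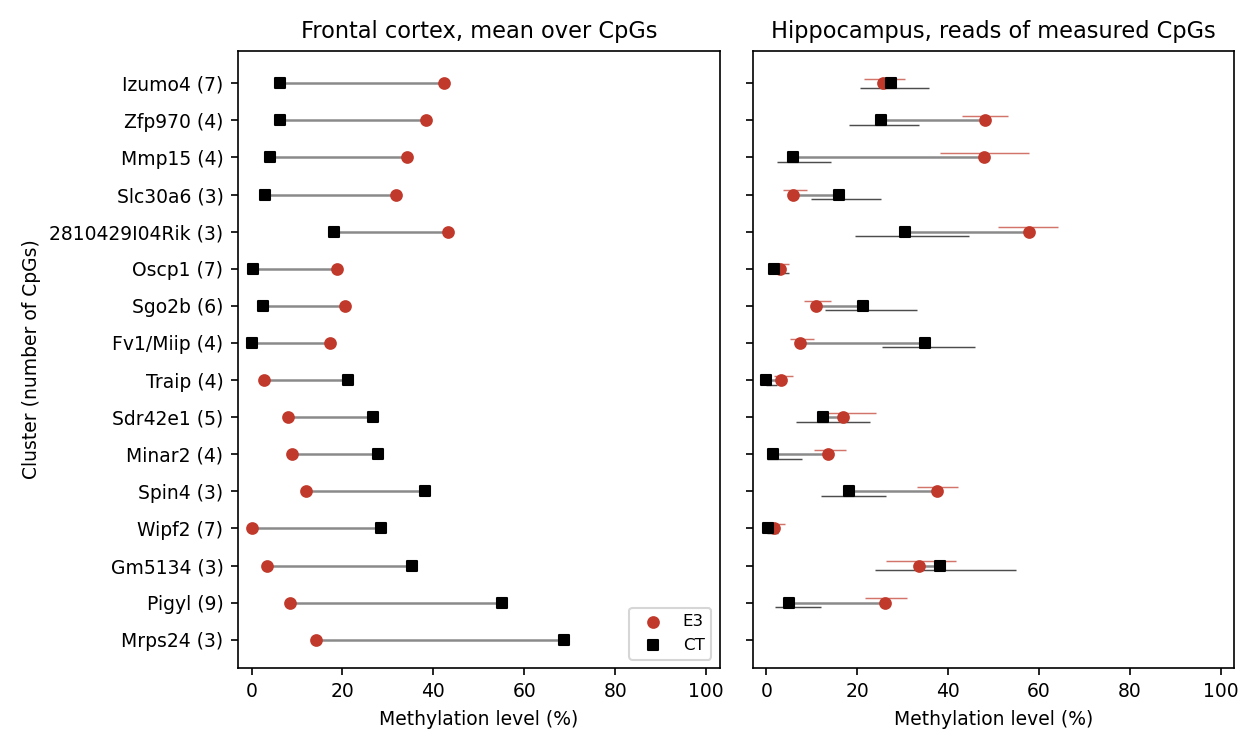
Methylation level (x axis, %) in E3 (circles) and CT (squares) at the 8 largest clusters of each direction, with the number of CpGs in brackets; the left panel gives the frontal cortex mean over the CpGs and the right panel the share of methylated hippocampus reads with 95% Wilson intervals. In the right panel Mmp15, Zfp970 and 2810429I04Rik keep their order and Pigyl, Minar2, Spin4, Slc30a6 and Fv1/Miip change it with intervals that do not overlap. A read counts once at each CpG it covers, so the intervals are too narrow and their overlap is no test. Of the clusters that change order, Minar2 had 0 of 4 CpGs called, Pigyl 1 of 9 and Slc30a6 1 of 3. Fv1/Miip had 2 of 4 called and Spin4 2 of 3. The intervals of the others overlap, and Mrps24 was not measured there.

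Wipf2, which codes for a partner of the actin regulator WASP, stood apart from the other clusters. All 7 of its CpGs, spread over 169 bases of an intron, had exactly 0.00% in E3 and exactly 28.6% in CT. The 4 CHG and 7 CHH sites listed around them, where H is any base but G, all had 0.00% in E3 and 40.0% in CT. The listed CHG and CHH sites, all at the same level, thus moved with this cluster, and their part in the result was not tested. Whether the C in these reads was methylated or left unconverted by bisulfite was not tested, here or at other listed sites. In the hippocampus the 7 CpGs had 1.80% of 278 reads in E3 and 0.463% of 216 in CT. A promoter CpG of Sv2c, a synaptic vesicle protein gene chosen after its values were seen, had 0.00% in E3 and 50.0% in CT and lay near 3 CHG and 16 CHH sites with 0.00% in E3 and 40.0% to 57.1% in CT. Of all 1138 CpGs, 40 had a listed CHG or CHH site within 100 bases, 30 of them lower CpGs. At 32 of the 40 such a site had the same direction.

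At 9 CpGs a nearby CHG or CHH site went the opposite way, and the 3 named here were chosen after their values were seen. Cstb, which codes for the protease inhibitor cystatin B, had a CpG with 0.00% in E3 and 94.1% in CT, while the CHG site 1 base before it had 100% and 17.2%. Tmem67, a gene of the primary cilium, had 1.82% and 92.7% at a CpG, and 71.1% and 0.00% at a CHH site 9 bases away. Zfp872 had 0.00% and 95.7%, and 83.3% and 0.00% at a CHH site 19 bases away. In these 3 cases the nearby non-CpG site was high in the library in which the CpG was low. The bases the mice carry at these sites were not analysed here.

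The largest single differences spanned the whole scale. Mir6923, Kif2c, Zfand3, Gm12130 and Pde8b each had a CpG with 0.00% in E3 and 100% in CT. Kif2c codes for a kinesin of dividing cells and Pde8b for a cAMP phosphodiesterase. H2-DMa, which helps load peptides on MHC class II, had 0.00% and 98.4%, Gpld1, an enzyme that cuts GPI anchors, 0.00% and 97.3%, and Zfp872 0.00% and 95.7%. The largest differences in the other direction had 0.00% in CT and 96.4% in E3 at Fsip2, a gene of the sperm tail, 95.2% at the olfactory receptor gene Olfr1015, 91.4% at the glutathione peroxidase gene Gpx2 and 88.5% at Rangap1, a regulator of nuclear transport. They were followed by Lrrc74a with 87.3%, the shared promoter of Gm36633 and 1700011C11Rik with 83.3%, 4933427D14Rik with 74.4% and Ttc28 with 70%. Of the 23 CpGs with at least 75 points, 17 were lower, 1 had another CpG of the set within 100 bases and 6 lay in repeats.

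Of the 23 CpGs with at least 75 points, 16 were measured in the hippocampus. Of these 16, 9 were called, against 18.9% of all measured CpGs of the set. Only 2 were called in the frontal cortex direction, and the other called ones had the opposite direction. The hippocampus difference was under 10 points at 2 of the 16. At Mir6923, 48.7% of 78 reads (37.9% to 59.6%) were methylated in E3 and 100% of 31 (89.0% to 100%) in CT. At Kif2c it was 72.2% of 18 and 71.4% of 7 reads. H2-DMa had 83.9% of 56 reads in E3 and 36.8% of 19 in CT, Gpld1 51% of 49 and 0.00% of 14, and Fsip2 57.1% of 56 and 100% of 8, all against the frontal cortex order. Rangap1 had 25.4% of 67 and 85.7% of 14, also in the opposite order.

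Gene groups were compared with the whole set, in which 72.7% of CpGs were lower and the median difference, E3 minus CT, was -17.4 points. Of all 49595 RefSeq genes, 1051 (2.12%) had such a CpG. Coverage differed between lists. A promoter CpG was measured in the hippocampus at 27805 of the 49595 genes, and at 47 of 48 synaptic scaffold and adhesion genes. How many genes could be listed in the frontal cortex is unknown, so the 2.12% is not a matched share for any list. Imprinted genes, which are expressed from the copy of 1 parent, had 8 CpGs at 6 of the 54 genes listed, all lower. The list leaves out the microRNAs of the imprinted group on chromosome 12, whose 4 CpGs were higher and are given with the microRNAs. Peg3 and Usp29 share a promoter and had 3 of them, with 2.60%, 6.49% and 1.32% in E3 and 26.4%, 26.4% and 25% in CT, none measured in the hippocampus. Gnas, which codes for a G protein subunit, had 0.00%, 0.00% and 38.8% in E3 against 40.0%, 41.5% and 70% in CT. The third of these had 43.5% of 69 hippocampus reads in E3 and 72.2% of 18 in CT (unadjusted p = 0.036, Fisher's exact test). Snrpn had 7.69% and 48.1%.

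Among genes of the synapse, neurotransmitter receptors had 6 CpGs at 5 of 102 genes, 5 of them lower. Htr7, a serotonin receptor gene, had 3.64% and 20% in E3 against 17.7% and 60.4% in CT, with a CHH site listed nearby. Its first CpG had 14.5% of 62 hippocampus reads in E3 and 62.5% of 8 in CT. The kainate receptor gene Grik1 had 1.32% and 34.7%, but 31.7% of 63 and 0.00% of 12 hippocampus reads. Htr6 had 25% and 58.3%, and Htr1d was the higher one with 35.3% and 4.76%. Ion channel genes had 12 CpGs at 10 of 159 genes, 10 of them lower, among them 3 of the potassium channel partner Kcnip3 with 0.00% in E3 and 21.4% to 23.1% in CT. Kcnh5 had 4.55% and 57.1%, and Trpc5 17.5% and 51.4%.

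Neuropeptide genes had 5 CpGs at 5 of 57 genes, 4 of them lower. Adcyap1, which codes for the peptide PACAP, had 8.33% and 37.8%, Sstr5, a somatostatin receptor, 8.33% and 26.7%, and Ucn, a peptide related to the stress hormone CRH, was the higher one with 17.8% and 0.00%. Tacr1, the substance P receptor, had 4.55% and 29.4%. Synaptic scaffold and adhesion genes had 8 CpGs at 6 of 48 genes, 5 lower. Dlg3 had 9.29% and 20.2% in E3 against 25.8% and 46.7% in CT, and Nlgn3 31.0% and 6.67%. Syt2 had 1 lower CpG, with 11.1% and 51.4%, and 1 higher one, with 44.9% and 22.1%. Homer3 had 23.4% and 4.08%.

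The genes of steroid and nuclear receptors and their partners had 3 CpGs at 2 of 54 genes. The coactivator gene Ncoa1 had 0.00% in E3 and 20.8% in CT at 2 CpGs, and the liver X receptor gene Nr1h3 8.00% and 52.6%. All 3 had 0.00% in both hippocampus libraries, at 6 to 14 reads. DNA methylation and histone modifiers had 3 CpGs at 3 of 63 genes, all lower. The DNA methyltransferase gene Dnmt3b had 3.39% and 18.4%, the chromatin remodeller gene Smarca4 0.00% and 38.5%, and the histone deacetylase gene Hdac3 10.4% and 30.0%, with 36.0% of 75 and 68.0% of 25 hippocampus reads. Immediate early genes had 0 CpGs at 22 genes.

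Markers of cell types had few of the CpGs. The 2 of astrocyte markers were higher, Slc1a3, a glutamate transporter, with 23.3% and 0.00% and Slc7a10 with 31.4% and 12.1%. Those of neuron markers were 4 lower CpGs. They included CpGs with 12.7% and 0.00% in E3 against 31.8% and 27.3% in CT at the neurofilament gene Nefh, and 4.62% and 18.2% at Cux2. Pdgfra of oligodendrocyte precursors had 6.25% and 44.4%, C1qa of microglia 3.70% and 34.6%, and Cldn5 of vessels 21.5% and 4.88%. With 1 to 4 CpGs per cell type, no shift in cell shares can be read from them.

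Zinc finger genes named Zfp had 25 CpGs at 21 of 419 genes, of which 10 were lower and 15 higher, 4 of these in the Zfp970 cluster. Zfp810 had 42.9% in E3 at 2 CpGs and 4% and 2.00% in CT, and Zfp772 63.1% and 0.00%, against 61.9% of 239 and 85.1% of 94 hippocampus reads. Ribosomal protein genes had 13 CpGs at 9 of 496 genes and pseudogenes, 12 of them lower, among them Rpl14 with 9.09% and 12.9% in E3 against 37.2% and 52.6% in CT. Rps4x had 9.76% and 0.00% against 42.9% and 25%, and Rpl41 0.00% and 31.6%. Keratin and keratin-associated genes had 3 lower CpGs, and Krt25 had 0.00% and 61.9%, with 0.00% of 34 and 60.0% of 20 hippocampus reads. Of 1799 olfactory and vomeronasal receptor genes 2 had a CpG, Olfr1015 and Olfr1094, the latter with 39.2% and 80.5%. Only 264 of the 1799 had a promoter CpG measured in the hippocampus. Of 46 MHC genes, H2-DMa had 1. In these lists the share of lower CpGs ran from 0 of 2 to 8 of 8 at small numbers, and nothing particular to a list is read from it.

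MicroRNA genes had 22 CpGs at 30 of 1196 genes, since clustered microRNAs share promoter windows, and 15 were lower. Many of these windows lie inside a host gene. Mir1982 had 16.9% and 0.00% in E3 against 46.2% and 21.4% in CT. Chromosome 12 has 4 of the CpGs at 13 microRNAs of a large imprinted group, and all 4 were higher in E3 (chosen after their values were seen). The CpG of Mir433 and Mir127 had 50.0% in E3 and 0.00% in CT, that of Mir3071, Mir434, Mir136 and Mir432 48.6% and 0.00%, and that of Mir1188 and Mir341 29.8% and 0.00%. In the hippocampus these 3 had 0.00% in both libraries, at 32 to 68 reads in E3 and 8 to 42 in CT. The CpG of Mir323, Mir329, Mir380, Mir758 and Mir1197 had 84.6% and 21.4%, and 88.0% of 25 and 100% of 15 hippocampus reads.

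Chromosome X held 88 of the CpGs, of which 68.2% were lower, against 73.0% of 1050 on autosomes. In females, 1 X chromosome of each cell is silenced and methylated at many promoters. Levels on X were higher, with medians of 13.2% in E3 and 27.3% in CT, against 5.39% and 20.9% on autosomes. The hippocampus medians on X were 26.1% in E3 and 23.1% in CT, against 12.0% and 0.00% on autosomes. Median depth was 41 reads in E3 and 18 in CT on X, and 36 and 12 on autosomes. Of the autosomal CpGs, 77 were called lower in E3 and 55 higher, and the part of depth in these medians was not tested. Mbnl3, an RNA splicing factor gene, had 3 higher CpGs with 38.1% to 49.4% in E3 and 21.9% to 32.5% in CT, and 40.3% against 21.6% in the hippocampus. Pou3f4, a neural transcription factor gene, had 3 lower ones with means of 11.4% and 36.3%, and 30.3% against 14.8% in the hippocampus. Mid1, a microtubule-associated ubiquitin ligase gene chosen after its values were seen, had CpGs of both directions. Its lower CpG had 5.41% in E3 and 27.3% in CT, with 29.6% of 27 and 88.9% of 9 hippocampus reads. Its 3 higher CpGs had 40.0%, 15.2% and 15.2% in E3 and 13.6%, 0.00% and 0.00% in CT. On chromosome X 18 of the 69 measured CpGs (26.1%) were called in the hippocampus, 10 with the frontal cortex direction, against 132 of 724 (18.2%) on autosomes. The higher levels on X moved with this share, and their part in it was not tested.

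In the hippocampus, 793 of the 1138 CpGs (69.7%) had at least 5 reads in both libraries, with a median of 36 reads in E3 and 13 in CT. Of these 793, 150 (18.9%, 16.3% to 21.8%) were called, against 12.1% of all hippocampus CpGs and 6.63% of those near a RefSeq start. Calls lower in E3 numbered 85 (10.7%) and higher ones 65 (8.20%), against 4.43% and 2.2% of all promoter CpGs. All promoter CpGs here include those in islands. Of the other measured CpGs listed in the frontal cortex, 11.6% were called at island promoters and 18.9% in islands outside promoters. It was 30.5% in exons, 35.4% in introns and 36.3% between genes, so the share of this set was not high among listed CpGs. Of the 150 called CpGs, 76 had the frontal cortex direction and 74 the opposite one, a share of 50.7% (42.7% to 58.6%). At the 531 CpGs lower in the frontal cortex, 51 were called lower and 40 higher, and at the 262 higher ones 25 were called higher and 34 lower. The median hippocampus difference, E3 minus CT, was 2.86 points (0.52 to 4.17) at the former and 0.27 points (0 to 3.70) at the latter. Median depth was 32 reads in E3 and 11 in CT at the former, and 46 and 16 at the latter. These intervals come from the ranked values and treat CpGs as independent, so neither tests a shift between the exposures. At frontal cortex differences of at least 25 points the medians were 1.75 points (0 to 6.67) and 0 points (-2.86 to 7.39).

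**Figure D4:**
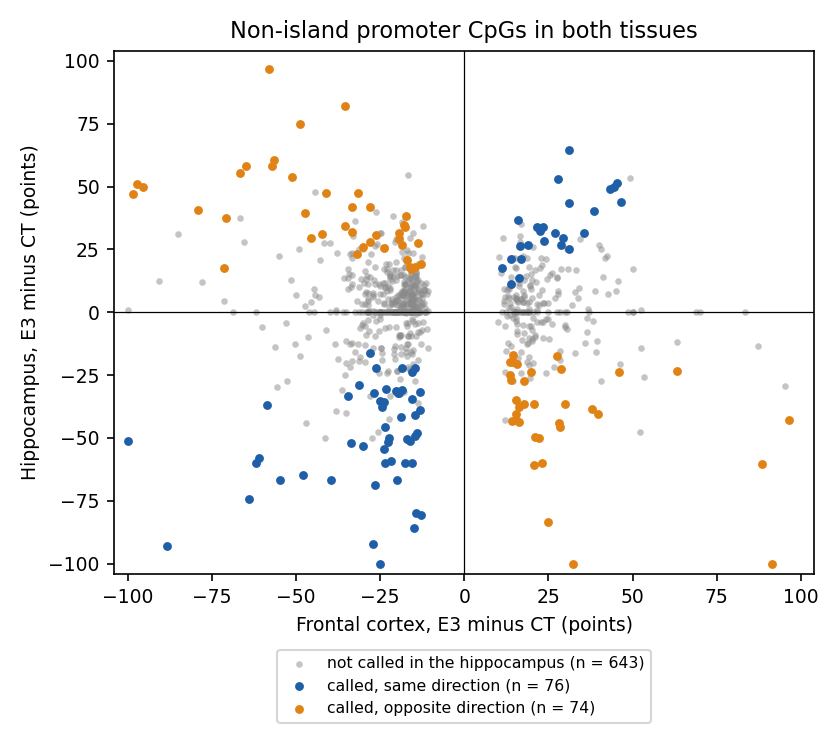
Difference between E3 and CT in the frontal cortex (x axis, points) and the hippocampus (y axis, points) at the 793 promoter CpGs outside islands measured in both. The 150 called CpGs lie in all 4 quadrants, 76 with the same direction and 74 with the opposite one.

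The share called followed the methylation level. Among measured promoter CpGs of the hippocampus 77.9% had under 10% methylation with the reads of both libraries together, but only 39.5% of the CpGs of this set. Under 10%, 2.24% of the set and 2.11% of all promoter CpGs were called. At 10% to 30% it was 24.2% (19.8% to 29.2%) and 26.7%, and at 30% to 70% 41.5% (33.8% to 49.6%) and 35.6%. At 70% to 90% 6 of 13 CpGs were called, against 23.0% of all promoter CpGs, and at 90% or more 0 of 6 against 3.41%. Up to 70% the value of all promoter CpGs lay within the interval of the set in each class, and at 70% to 90% it lay just under the lower bound of 23.2%.

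**Figure D5:**
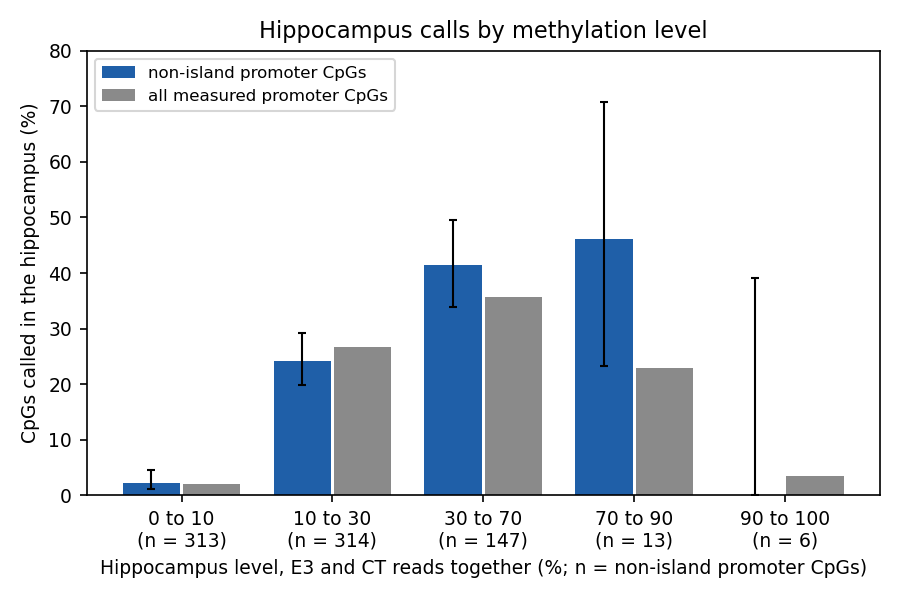
Share of CpGs called in the hippocampus (y axis, %) by methylation level of the E3 and CT reads together (x axis, %), with 95% Wilson intervals for the promoter CpGs outside islands. In the 3 lowest classes the set and all promoter CpGs differ by less than the interval, from 2.24% and 2.11% to 41.5% and 35.6%.

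Calls with the frontal cortex direction were led by Asb10, a gene of a SOCS box protein, with 4% in E3 and 52.0% in CT. Its hippocampus levels were 0.00% of 73 reads (0.00% to 5%) and 64.7% of 17 (41.3% to 82.7%), with an unadjusted p of 3e-10 in Fisher's exact test. Mir7022 had 0.00% and 88.2% in the frontal cortex and 0.00% of 29 and 92.9% of 14 reads in the hippocampus (exact p = 3.8e-10). Numb, an inhibitor of Notch signalling, was higher in E3 in both tissues, with 46.7% and 0.00% and then 100% of 84 and 56.3% of 32 reads (exact p = 1.2e-09). Nkx3-2, a homeobox gene, had 6.33% and 21.4% and then 0.00% of 30 and 85.7% of 14 reads. Med9, of the Mediator complex, had 3.57% and 18.2% and then 9.80% of 102 and 59.0% of 39 reads, and Smim3 10.4% and 23.7% and then 6.58% of 152 and 45.5% of 44 reads. The libraries thus stood in the same order in both tissues at these 6 CpGs.

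Calls against the frontal cortex direction were led by Gpx2. It had 91.4% in E3 and 0.00% in CT in the frontal cortex, and 0.00% of 25 reads (0.00% to 13.3%) and 100% of 13 (77.2% to 100%) in the hippocampus (exact p = 1.8e-10). Gm10857 had 12.5% and 70.6% and then 96.8% of 31 and 0.00% of 9 reads (exact p = 3.7e-08). The aldo-keto reductase gene Akr1e1 had 29.5% and 1.30% and then 2.22% of 90 and 46.2% of 26 reads. Gm17359 had 0.00% and 51.4% and then 54.0% of 63 and 0.00% of 22, and Uap1l1 0.00% and 79.2% and then 52.6% of 137 and 11.8% of 34. The Fv1/Miip CpG had 16.3% and 0.00% and then 8.26% of 121 and 51.9% of 27.

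Of the 150 called CpGs 74 were measured on both strands, which were added for the call, so that agreement between them follows in part from the choice. At 52 of the 74 the strands differed in the same direction, at 45 by at least 10 points each, and at 13 both strands passed the call rule alone. With p-values adjusted over all hippocampus CpGs (Benjamini-Hochberg), 59 of the 793 CpGs were called.

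Some CpGs were at 0.00% in 3 of the 4 libraries. Of the 262 higher CpGs measured in the hippocampus, 13 were at 0.00% in the other frontal cortex library and in both hippocampus libraries, with 15.4% to 83.3% in frontal cortex E3. Ttc28 was among them, with 0.00% of 163 hippocampus reads (upper bound 2.30%) in E3 and of 26 in CT (upper bound 12.9%), and so was the promoter of Gm36633 and 1700011C11Rik, with 0.00% of 70 and of 14 reads. Of the 531 lower CpGs measured, 36 were at 0.00% in all libraries but frontal cortex CT, which had 15.4% to 68.8%. An enzyme site held 3 of the 13 and 24 of the 36. The median hippocampus depth was 44 reads in E3 and 16 in CT at the 13 CpGs, and 17 and 9 at the 36, so that many of these zeros rest on few reads.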

How the data were processed

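Methyl-MiniSeq libraries of the frontal cortex and hippocampus, 1 E3 and 1 CT library each, were processed by the authors, who trimmed adapters, filled-in bases and low quality ends with TrimGalore, checked them with FastQC, aligned them to mm10 with Bismark and counted them with MethylDackel. The deposited frontal cortex tables list differing cytosines in CpG, CHG and CHH contexts and give the methylation level of each library as a fraction, with no read numbers, so that the depth behind each level is unknown. By the study's methods sites with 5 or more reads were tested by Fisher's exact test, and sites were listed at a 10% difference and p under 0.05 before adjustment. In this kind of reading a T at a cytosine counts as unmethylated, whatever base the animal carries there. The deposited hippocampus table gives a fraction to 2 decimals and a count of reads per cytosine. The authors' differences, p-values, adjusted p-values and classes in these tables were not used. The hippocampus CHG and CHH tables were not used here.

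Methylated hippocampus reads were rebuilt as the rounded product of fraction and count, and the reads of both strands of a CpG were added. CpGs with at least 5 reads in both libraries were tested by a 2-sided Fisher's exact test, and called where the libraries lay 10 points or more apart with p under 0.05. Adjusted p-values (Benjamini-Hochberg) covered all 1722586 CpGs. The test was checked on simulated data. Intervals of shares are 95% Wilson intervals, and 95% intervals of medians come from the ranked values over CpGs. PCR reads without molecular identifiers are not independent molecules, so intervals of shares and tests cover counting error only. Distances, features and repeats came from RefSeq on the same build, with promoter CpGs of the hippocampus defined as those within 1000 bases of a RefSeq start.

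Named were the 12 genes with the most CpGs, the 8 clusters with the most CpGs in each direction, the 8 CpGs with the largest frontal cortex difference in each direction, the 6 called hippocampus CpGs with the smallest p in the same and in the opposite direction, and up to 4 genes per list with the most CpGs. Ties went to the larger difference. Some genes that this rule names are not reported here. The CpG set and the gene lists were chosen with earlier results of these data known. Alternatives were the minimum reads, the difference required in either tissue, the adjusted p, the strands taken singly, and the cluster gap and size. Others were limits to CpGs with an empty exon column, on autosomes, outside repeats or within 1000 bases of a RefSeq start. Levels above 0 in both libraries and 1 value per promoter gene were also used. Chosen after seeing the data were leaving out enzyme sites or CpGs near CHG or CHH sites. Python 3.11.15, NumPy 2.4.6, SciPy 1.17.1, pandas 2.3.3, numba 0.67.0 and matplotlib 3.10.9 were used.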

Additional observations from a re-analysis of the deposited data

Results flagged for a closer look

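Hippocampus differences stood against the frontal cortex direction at 74 called CpGs. The difference between the tissues was not tested, because the frontal cortex levels have no read numbers and each tissue has 1 library per group. Hippocampus differences below are E3 minus CT.

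Among CpGs higher in E3 in the frontal cortex, the hippocampus difference was -100 points at Gpx2, -43.9 points at Akr1e1 and -43.6 points at the Fv1/Miip CpG. Among CpGs lower in E3 in the frontal cortex, it was 96.8 points at Gm10857, 54.0 points at Gm17359 and 40.8 points at Uap1l1.

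Over whole clusters with at least 1 called CpG, Pigyl, Spin4 and Pou3f4 were lower in E3 in the frontal cortex and had hippocampus differences of 21.2, 19.4 and 15.5 points. Sgo2b, Fv1/Miip, Slc30a6 and Mir12182 were higher in E3 in the frontal cortex and had hippocampus differences of -10.4, -27.6, -10.2 and -15.2 points.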

How the results depend on the processing

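Of 52 values under alternative settings, 39 lay within the interval of the value reported, 10 lay outside it and 3 changed side of 50%. Several settings kept most of the same CpGs, such as 1050 on autosomes and 1048 outside repeats. The limit of 1000 bases from a RefSeq start kept all 1138, so its agreement was fixed. The 39 are therefore not independent checks. The numbers of clusters have no interval and were sorted into these groups by the size of their change. The share of CpGs lower in E3 in the frontal cortex was 60.6% without CpGs in an MspI or TaqαI site. The share with enough hippocampus reads was 43.0% at 10 reads and 18.5% at 20. The share called in the hippocampus was 24.5% at 10 reads, 27.6% at 20 reads, 26.1% for frontal cortex differences of at least 25 points, 15.5% for hippocampus differences of at least 25 points, 7.44% with an adjusted p under 0.05, and 23.2% without enzyme sites. The share of called CpGs with the frontal cortex direction, 50.7% as reported, was 44.6% for frontal cortex differences of at least 25 points, 48.3% at 10 reads and 43.4% without enzyme sites, and the cause was not tested. With at least 5 CpGs there were 6 clusters. The settings without enzyme sites were chosen after seeing the data. No paired analysis was possible because each group has 1 library per tissue, and for the same reason no replicate could be left out. Depth limits the hippocampus, where CT had a median of 13 reads per CpG, and its limit in the frontal cortex is unknown.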
